A study of Mus musculus with 90 samples.

Results

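Respiratory chain genes encode the subunits of the 5 protein complexes of the inner mitochondrial membrane that turn the oxidation of nutrients into ATP. They were taken as every probe set, that is a set of short probes for a single transcript, whose only gene symbol begins with Nduf, Uqcr or Atp5, is *Sdha*, *Sdhb*, *Sdhc* or *Sdhd*, or is Cox4 to Cox8 followed by letters or digits. The muscle isoforms *Cox6a2*, *Cox7a1* and *Cox8b* were kept apart as a comparison. This gave 77 genes on 141 of the 36701 probe sets of the 3 chip designs MG_U74Av2, MG_U74Bv2 and MG_U74Cv2. A probe set was tested where at least 3 of the 30 arrays of its chip lay above the chip median, which held for 74 genes on 110 probe sets, out of 24307 tested in all. *Ndufc2*, *Ndufaf2* and *Cox8a* were above the median in 0 of 30 arrays and have no test.

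The samples were primary skeletal myoblasts of MyoD-/- mice, grown on collagen-coated plates in Ham's F10 with bFGF, a growth factor, and 20% fetal bovine serum, and then moved to DMEM hg with 2.5% horse serum. Samples after 6h, 12h, 18h, 24h, 36h and 48h of the low-serum medium, and after 3, 4 and 7 days (3d, 4d and 7d), were each set against 0h. Every time held 3 arrays per chip, 1 for culture 1999, 1 for P6 and 1 for P10, and every sample, at 0h too, lacked MyoD, so no comparison bears on the genotype. MyoD is a transcription factor that starts skeletal muscle differentiation, and low serum is the usual signal for myoblasts to leave the cell cycle and fuse into myotubes. The labels do not say what the culture names stand for or whether the cultures came from separate animals, so the p-values speak only for these cultures. In the tests of time they measure the spread of the arrays around a shared course, with differences in level between cultures taken out.

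Complex I takes electrons from NADH and complex II from succinate, and ubiquinone carries both to complex III. Complex III passes them by cytochrome c to complex IV, which reduces oxygen, and complex V uses the proton gradient built by complexes I, III and IV to make ATP. Skeletal muscle is rich in mitochondria, and some complex IV subunits exist as a ubiquitous isoform and as an isoform of heart and skeletal muscle. All genes described here are nuclear, so the subunits encoded by mitochondrial DNA are not among them.

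Markers of muscle differentiation were called higher at 7d in 12 of 13 cases and markers of dividing cells lower in 7 of 7 (limma, adjusted p under 0.05), and the cultures differed in when this happened. The summed signal of the 13 muscle markers was 281655, 556880 and 832092 in 1999, P6 and P10 at 7d, against 8321, 6238 and 16960 at 0h. It had reached 540940 in P10 and 103734 in P6 by 24h. In 1999 it was 113392 at 36h and 89982 at 48h, and then only 16562 at 3d and 25434 at 4d. The 1999 arrays of 3d and 4d thus stand apart from the others. Of 7 fibroblast markers 3 were higher at 7d, and their sum was 110719, 52176 and 55772 at 7d, against 105079, 22881 and 24308 at 0h, in the same order of cultures. The 7 tested markers of dividing cells summed to 3414, 2520 and 2181 at 7d, against 46714, 56741 and 40549 at 0h. Of the adipocyte, smooth muscle, macrophage, endothelial and neural or Schwann markers 2, 3, 2, 1 and 1 were tested. At 7d *Acta2* of the smooth muscle list was called higher, *Cd14* of the macrophage list lower, and the other 7 did not pass. The adipocyte markers *Lpl* and *Cebpa* summed to 13834, 7639 and 3387 in 1999, P6 and P10 at 7d, against 4138, 4684 and 4274 at 0h, so that 1999 was highest and P10 lowest at 7d. The *Myod1* probe set read between 2598 and 6889 in the 30 arrays, and since the deleted part and the position of the probes are not given in the sources used here, it does not check the genotype. In bulk RNA, fewer cells of a type and less RNA per cell cannot be told apart.

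Few of the respiratory chain genes passed the test at any time, and most of those that did belong to complex I, which holds 31 of the 74. The test was limma's on log2 signal with culture as a block, adjusted over all tested probe sets, with an adjusted p under 0.05 as the threshold. At 6h and 12h, 0 of 74 genes passed, beside 1.1% and 3.49% of all tested probe sets, although 5 and 2 of them had an unadjusted p under 0.05, beside 11.4% and 14.7% of all. At 18h 5 genes passed, where 8.73% of all probe sets did, 4 higher and 1 lower beside 4.31% and 4.43%. At 24h 3 passed, all higher, beside 8.3% of all and 4.44% higher. At 36h 3 passed, all higher, beside 7.87% and 4.29%, and at 48h 5, all higher, beside 11.1% and 5.56%. At 3d 6 passed, all higher, beside 9.97% and 5.23%. At 4d 8 passed, 7 higher and 1 lower, beside 11% in all, 5.84% higher and 5.2% lower. At 7d 13 passed, where 14.9% of all did, 11 higher and 2 lower beside 7.64% and 7.31%. The share of respiratory chain genes that passed was below that of all probe sets from 6h to 4d, by the least at 4d (10.8%), and above it at 7d (17.6%).

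In all, 14 genes passed at 1 or more times. Of these, 11 belong to complex I or its assembly factors, which hold 31 and 6 of the 74 tested genes. The 14 genes made up 43 of the 666 combinations of gene and time, 39 higher and 4 lower. The share of all probe sets that passed ran from 1.1% at 6h to 14.9% at 7d, and their share over all times together was not computed. Between consecutive times 0 genes passed in limma, where at most 0.128% of all probe sets did (18h against 12h), with 0.00411% at 24h against 18h and 0 at the other steps. An unadjusted p under 0.05 was found in 4 of 74 genes at 18h against 12h and in 4 at 7d against 4d, beside 6.54% and 4.01% of all probe sets, and in 0 at the other steps. In the joint test over all times 4 genes passed, where 8.31% of all probe sets did: *Ndufv3* (adjusted p = 0.0203), *Ndufaf3* (adjusted p = 0.0232), *Ndufa6* (adjusted p = 0.0239) and *Ndufa3* (adjusted p = 0.0489). All 4 are genes of complex I or its assembly.

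At 7d against 0h the median log2 change over the 74 genes was 0.18, beside −0.05 over all tested probe sets, and 57 of 74 changes were positive, beside 45.6% of all. Complex I had a median of 0.35 with 30 of 31 changes positive and 9 genes called higher. Complex III had a median of 0.35 with 7 of 7 positive and 1 called higher. The 6 assembly factors had a median of 0.14 with 1 called higher, and complex V, with 14 genes, a median of 0.18 with 1 called lower. Complex II stood at 0.01 over 4 genes with 0 called, and complex IV at −0.03 over 12 genes with 1 called lower and 0 higher. These medians are descriptions, and the difference between complexes was not tested. At 24h the median over the 74 genes was 0.05, beside −0.0046 over all.

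**Figure D1:**
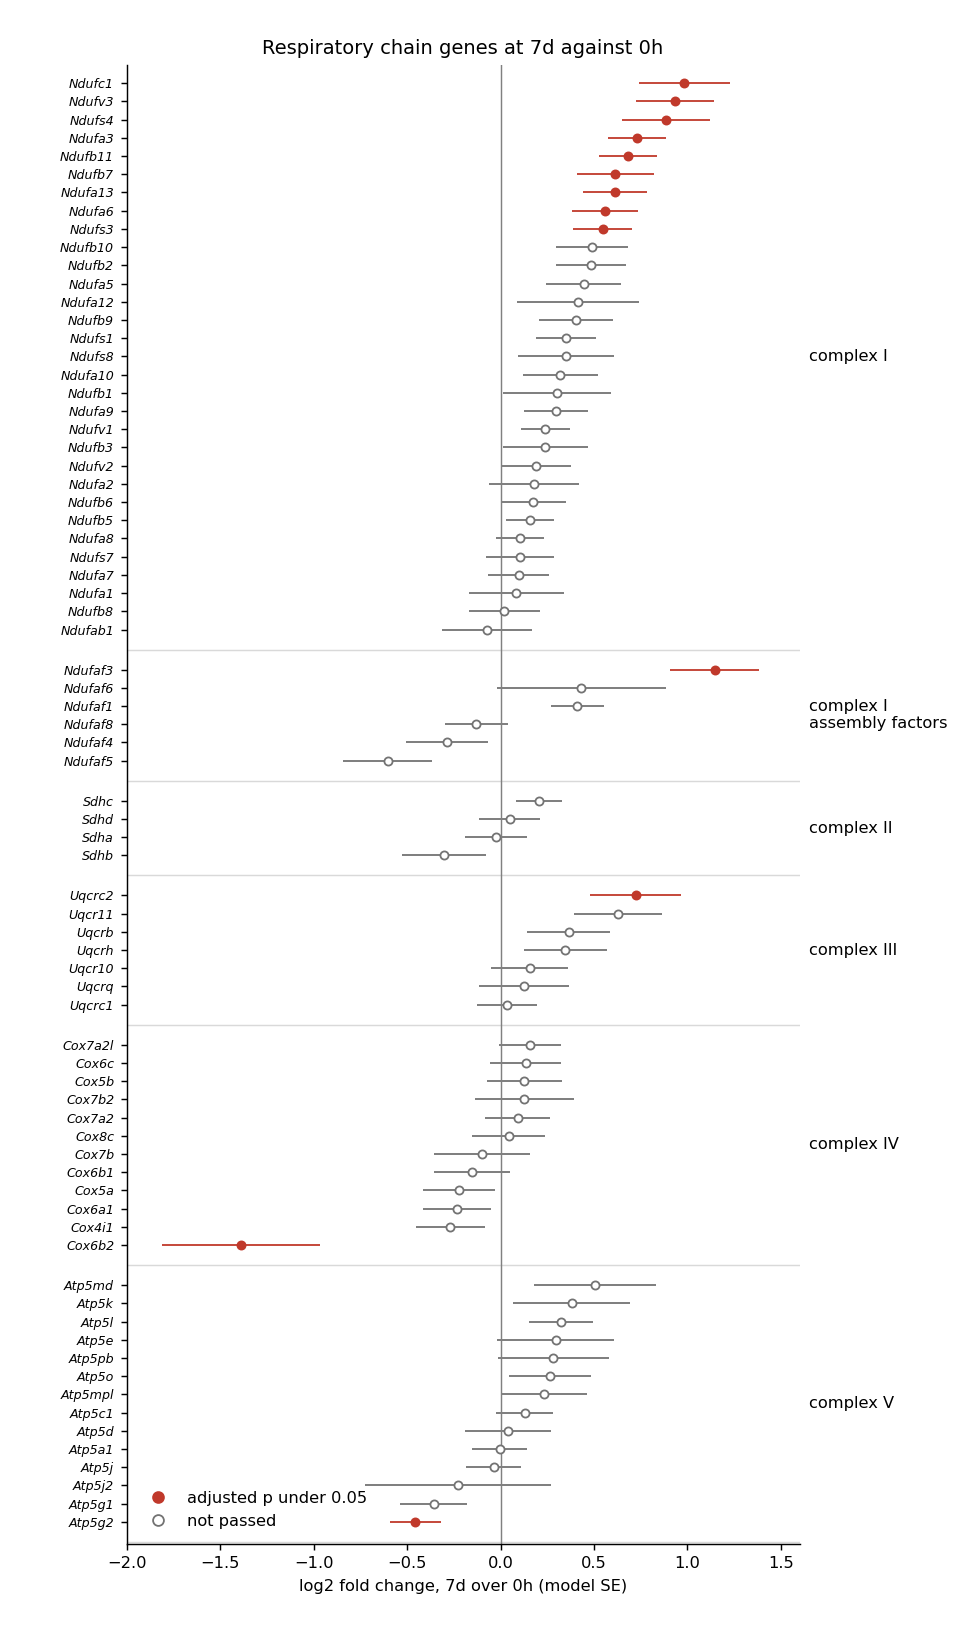
Log2 fold change at 7d against 0h with its standard error for each of the 74 tested genes, grouped by complex, with genes past an adjusted p of 0.05 in colour (3 arrays per time, culture as a block). The 9 called genes of complex I, with *Ndufaf3* and *Uqcrc2*, lie right of 0, and the called genes of complexes IV and V, *Cox6b2* and *Atp5g2*, lie left of it.

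The calls at 7d rested on the cultures unequally. Of the 13, 8 passed without 1999, 4 without P6 and 0 without P10, and 4 passed in a fit without the culture block. The share of all probe sets that passed in these fits is not given here, so the counts need not be particular to these genes. All 11 genes that rose were higher in 3 of 3 cultures and had their largest change in P10. They were called on these same changes, so the selection favoured agreement between the cultures. Of all 74 tested genes, called or not, 28 were higher in 3 of 3 cultures. The change at 7d was largest in P10 in 56 of the 74. In *Ndufc1* the log2 changes in P10 and 1999 were close, 1.17 and 1.15. Without P10 the changes of the 11 genes that rose ran from 0.41 for *Ndufs3* to 0.91 for *Ndufaf3*. They had to stay positive, since each gene was higher in both of the other cultures. In 17 genes all signals at 7d lay above all at 0h, where this held for 13% of all probe sets, and in 4 genes all lay below, where it held for 14.8%. Of the 17, 14 are among the 31 subunits of complex I.

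*Ndufaf3*, an assembly factor that helps to build the arm of complex I that reduces quinone, had the largest rise of the 74 genes at 7d. Its signal was 4196 in 1999, 4575 in P6 and 4938 in P10 at 7d, against 1854, 2618 and 1427 at 0h. The groups did not overlap, and the log2 change was 1.15 ± 0.24 (SE, n = 3 per time, limma adjusted p = 0.00147). It passed at 7 times, from 18h on, with log2 changes of 0.99 at 18h, 0.85 at 24h, 1.05 at 48h and 1.15 at 7d. In P6 the signal first dipped, to 2383 at 6h and 2129 at 12h, and then stood at 5504 at 18h.

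*Ndufv3*, an accessory subunit of the module that oxidises NADH, passed at 6 times from 18h on, missing 24h. Its signal was 2879, 4128 and 5538 in 1999, P6 and P10 at 7d, against 2232, 2146 and 1814 at 0h. The log2 change at 7d was 0.94 ± 0.21 (SE, adjusted p = 0.00309), and it was 0.35, 0.91 and 1.55 in 1999, P6 and P10. *Ndufa6*, a small accessory subunit of the matrix arm that binds the mitochondrial acyl carrier protein, also passed at 6 times from 18h on. Its other 2 tested probe sets had the opposite sign at 7d, −0.55 and −0.54, without passing. The signal of the probe set used was 2618, 2101 and 2808 at 7d, against 1911, 1512 and 1553 at 0h. Its log2 change was 0.81 at 24h and 0.56 ± 0.18 at 7d (adjusted p = 0.0338). In 1999 it reached 4163 at 3d and stood at 2343 at 4d.

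The 150 bases before the start of these 3 genes, which with *Ndufs3* are those that passed as higher from 18h on at 6 or more times, and of 3 genes outside complex I that are described below are printed for comparison. For *Ndufs3* the bases around its motif match are printed further on. They come from RefSeq, build GRCm38.p6, written 5′ to 3′ on the strand of the gene. Capitals mark matches to the core of the motif of NRF-1 (GCATGCGC) or to the ETS motif bound by GABP (CCGGAAGT), which are known regulators of respiratory chain genes. In *Uqcr11* the last 4 capitals begin an NRF-1 match that runs on past the start, and in *Atp5g2* overlapping matches on both strands share the capitals.
*Ndufaf3*, chr9:108567437-108567586, minus strand: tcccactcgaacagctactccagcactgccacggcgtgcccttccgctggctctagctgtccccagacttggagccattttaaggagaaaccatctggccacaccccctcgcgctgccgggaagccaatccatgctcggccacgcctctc
*Ndufv3*, chr17:31519965-31520114, plus strand: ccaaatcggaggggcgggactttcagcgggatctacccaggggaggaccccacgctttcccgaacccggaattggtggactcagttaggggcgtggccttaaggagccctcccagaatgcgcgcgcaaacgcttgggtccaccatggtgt
*Ndufa6*, chr15:82354292-82354441, minus strand: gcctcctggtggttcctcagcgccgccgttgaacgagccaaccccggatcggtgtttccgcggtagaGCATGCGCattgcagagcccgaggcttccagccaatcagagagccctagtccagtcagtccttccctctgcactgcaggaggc
*Uqcr11*, chr10:80406822-80406971, minus strand: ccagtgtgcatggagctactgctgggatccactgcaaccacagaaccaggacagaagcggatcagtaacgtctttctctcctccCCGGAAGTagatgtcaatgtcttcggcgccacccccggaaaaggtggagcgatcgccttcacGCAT
*Atp5g2*, chr15:102671048-102671197, minus strand: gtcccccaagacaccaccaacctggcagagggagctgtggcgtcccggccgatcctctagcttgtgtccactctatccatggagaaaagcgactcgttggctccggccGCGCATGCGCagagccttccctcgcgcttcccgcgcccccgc
*Cox6b2*, chr7:4753095-4753244, minus strand: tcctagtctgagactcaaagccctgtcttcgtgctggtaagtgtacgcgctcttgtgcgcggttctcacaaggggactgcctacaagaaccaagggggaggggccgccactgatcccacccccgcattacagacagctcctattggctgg
These stretches of *Ndufaf3*, *Ndufv3* and *Cox6b2* hold neither motif, and *Ndufa6*, which rose, and *Atp5g2*, which fell, both hold the NRF-1 core.

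*Ndufs3*, a core subunit of the quinone module and the only core subunit called against 0h, passed at 6 times from 18h on. Its other tested probe set had the opposite sign at 7d, −0.35, without passing. The signal of the probe set used was 8928, 13076 and 14451 in 1999, P6 and P10 at 7d, against 6609, 9993 and 8071 at 0h, so that the 1999 signal at 7d lay below the P6 signal at 0h and the groups overlapped. The log2 change was 0.55 ± 0.16 (SE, adjusted p = 0.02). The 6 tested core subunits had a median log2 change of 0.29 at 7d, from 0.10 to 0.55. The 25 accessory subunits had a median of 0.41, from −0.07 to 0.98, with 8 called higher.

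The other accessory subunits that rose first passed later than *Ndufv3* and *Ndufa6*. *Ndufb11*, of the distal membrane arm, first passed at 48h, *Ndufa13*, also known as GRIM-19, at 3d, *Ndufa3* and *Ndufs4* at 4d, and *Ndufc1* and *Ndufb7* at 7d. The first time past a threshold is not a test of order, since log2 changes of *Ndufs4* were already 0.68 at 48h and 0.73 at 3d, and those of *Ndufc1* 0.63 and 0.65.

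*Ndufc1*, a small membrane-arm subunit, had signals of 7134, 10345 and 13315 in 1999, P6 and P10 at 7d, against 3144, 6640 and 5850 at 0h. Each culture rose, the groups did not overlap, and the log2 change was 0.98 ± 0.24 (SE, adjusted p = 0.00673). *Ndufs4*, whose loss in mice gives a disease like Leigh syndrome, had signals of 2988, 2695 and 2824 at 7d, against 1516, 1542 and 1263 at 0h. The cultures lay close together at both times, the log2 change was 0.89 ± 0.23 (SE, adjusted p = 0.0108), and it was 0.89, 0.73 and 1.04 in 1999, P6 and P10.

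*Ndufa3*, an accessory subunit of the membrane arm, had signals of 6995, 10232 and 14770 at 7d, against 5425, 6381 and 6521 at 0h, with a log2 change of 0.73 ± 0.16 (SE, adjusted p = 0.002). *Ndufb11* had 8040, 8741 and 11182 at 7d, against 6191, 5361 and 5619 at 0h (0.68 ± 0.16, adjusted p = 0.00357). *Ndufa13* had 4097, 4828 and 5280 at 7d, against 3377, 2998 and 2780 at 0h (0.61 ± 0.17, adjusted p = 0.0171). In these 3 genes the order at 7d was P10 over P6 over 1999, and the groups did not overlap. *Ndufb7*, a subunit of the membrane arm that faces the intermembrane space, had 15744, 22074 and 31777 at 7d, against 14739, 13344 and 15542 at 0h (0.61 ± 0.21, adjusted p = 0.0485). Its lowest value at 7d was only just above its highest at 0h, and its change was 0.09 in 1999 beside 0.72 in P6 and 1.03 in P10.

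**Figure D2:**
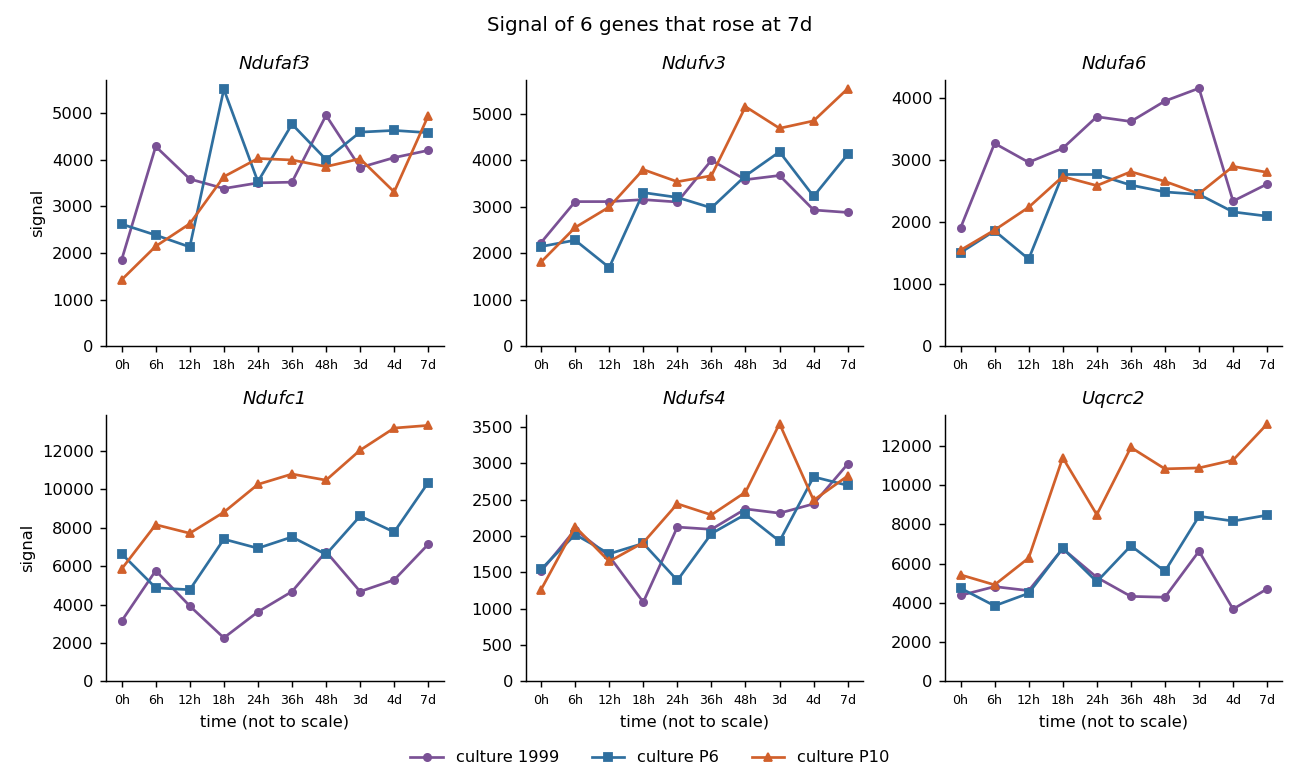
Signal (linear, from 0) of 6 genes that rose at 7d, by time (evenly spaced, not to scale), with a line for each culture and a point for each array. *Ndufaf3*, *Ndufv3*, *Ndufc1*, *Ndufs4* and *Ndufa6* are above their own 0h value in all cultures at 7d, and *Uqcrc2* is far above it in P6 and P10 and close to it in 1999.

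Printed next, for the 4 other risen genes with a match, are the 30 bases around the match. Capitals mark the YY1 motif (AAGATGGC) in the first 3, where it lies after the start and holds an ATG, and the GABP motif on the opposite strand in *Ndufs3*.
*Ndufa3*, chr7:3617384-3617413, plus strand: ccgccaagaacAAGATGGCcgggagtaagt
*Ndufc1*, chr3:51408915-51408944, minus strand: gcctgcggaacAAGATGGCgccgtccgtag
*Ndufs4*, chr13:114388045-114388074, minus strand: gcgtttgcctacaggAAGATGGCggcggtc
*Ndufs3*, chr2:90904703-90904732, minus strand: tgcacatttccACTTCCGGtccgtgccctt
A promoter of 300 bases, from 250 before to 50 after the start, was found in RefSeq for 64 of the 77 genes and for 27025 symbols in all. *Ndufa2*, *Ndufb9*, *Ndufs1*, *Ndufaf6*, *Sdhc*, *Uqcrb*, *Uqcrc2*, *Uqcrq*, *Cox4i1*, *Cox6c*, *Cox8c*, *Atp5a1* and *Atp5mpl* were not matched.

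Both strands were searched, and a match is a description of letters and not of binding. The NRF-1 core was in 11 of 64 promoters (17.2%), beside 3.05% of all, and in 1 of the 10 matched genes that rose at 7d. The YY1 motif was in 10 of 64 (15.6%), beside 3.19% of all, and in 3 of the 10. The GABP motif was in 4 of 64 (6.25%), beside 4.31% of all, and in 1 of the 10. The motif of the estrogen-related receptors (TCAAGGTCA) was in 1 of 64 (1.56%), *Sdhd*, beside 0.466% of all. Within complex I the NRF-1 core was in 2 of 29 and the YY1 motif in 6 of 29, and in complexes II to V in 7 of 29 and 3 of 29. Neighbouring letters of the motifs and base composition are shared among promoters, so these shares carry no test.

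The other subunits of complex I, 22 of 31, did not pass at 7d, and all of them but *Ndufab1*, the mitochondrial acyl carrier protein, had a positive change. Another assembly factor moved the other way at earlier times. *Ndufaf4*, which acts with *Ndufaf3*, was lower at 18h with a log2 change of −0.78 (adjusted p = 0.0263) and at 4d with −0.75 (adjusted p = 0.0283). Its signal at 18h was 420, 357 and 651 in 1999, P6 and P10, against 768, 1082 and 830 at 0h, and the groups did not overlap. At 7d its change was −0.29 and did not pass on this probe set, while another probe set of the gene gave −0.79 (adjusted p = 0.00803).

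In complex III, 7 of 7 genes had a positive change at 7d and 1 passed. *Uqcrc2*, a core protein of the matrix side, had signals of 4710, 8458 and 13093 in 1999, P6 and P10 at 7d, against 4380, 4746 and 5424 at 0h. The 1999 value at 7d lay inside the range of 0h, and the log2 change was 0.72 ± 0.24 (SE, adjusted p = 0.047). *Uqcr11*, a small subunit, had 12659, 15977 and 28547 at 7d, against 11075, 10485 and 13317 at 0h (0.63 ± 0.24, adjusted p = 0.0826). It did not pass with all cultures and passed without 1999, at 0.85 (adjusted p = 0.0232). *Uqcrb*, a subunit that lines the quinone site, had 7434, 14261 and 17961 at 7d, against 6875, 10808 and 11886 at 0h, with a change of 0.37 ± 0.22 that did not pass (adjusted p = 0.329).

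Of the 4 genes of complex II, 0 passed at any time against 0h in limma, and 0 had an unadjusted p under 0.05. *Sdhb*, the iron-sulfur subunit, had 4750, 7647 and 8442 at 7d, against 7811, 8171 and 9238 at 0h, each culture below its own 0h value, and 1999 by the most (−0.30 ± 0.22, adjusted p = 0.446). The other tested probe set of *Sdhb* gave a change of the opposite sign, 0.11 (adjusted p = 0.782). *Sdhc* and *Sdhd*, the membrane anchors, had log2 changes of 0.21 ± 0.12 and 0.05 ± 0.16. In *Sdhd* 1999 was lower at 7d by −0.21 and P10 higher by 0.34, so the cultures did not move together.

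Complex IV had 12 tested genes, and the only call at 7d was *Cox6b2*, known as the testis isoform of subunit 6b. The call is near background in 2 of the cultures: its signal was 497, 32.1 and 21.3 in 1999, P6 and P10 at 7d, against 2784, 72.2 and 306 at 0h. The log2 change was −1.39 ± 0.42 (SE, adjusted p = 0.0274), after a fixed 119.8 was added to each signal. In 1999 the signal ran from 497 to 3283 over the course, while P6 ran from 20.6 to 249 and P10 from 21.3 to 306. A further *Cox6b2* probe set gave −0.87 (adjusted p = 0.311) and another −0.04. The ubiquitous isoform *Cox6b1* had 604, 1009 and 952 at 7d, against 1271, 806 and 812 at 0h, lower in 1999 and higher in the others (−0.15 ± 0.20).

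*Cox4i1*, the ubiquitous isoform of subunit 4, had 504, 476 and 467 at 7d, against 655, 765 and 436 at 0h (−0.27 ± 0.18, adjusted p = 0.403). Its other 2 probe sets gave 0.48 and 0.03, so the sign depends on the probe set. The probe set used had a mean signal of 663, below the 1207 and 5535 of these 2. *Cox6a1*, the ubiquitous isoform of subunit 6a, had 19466, 29306 and 21222 at 7d, against 24564, 26895 and 29903 at 0h (−0.23 ± 0.18, adjusted p = 0.472). In P10 it climbed to 41065 at 18h and was lowest at 7d. *Cox7a2*, the ubiquitous isoform of subunit 7a, and *Cox7a2l*, which joins complexes III and IV in supercomplexes, had changes of 0.09 ± 0.17 and 0.16 ± 0.17.

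The muscle isoforms *Cox6a2* and *Cox8b* were called higher at 7d, while *Cox6a1* did not pass and *Cox8a* had no test. *Cox6a2* lay under the chip median of 527 at 0h in each culture and was tested only through later arrays, where it is high. The direction of its call was therefore largely set by the filter. *Cox6a2*, the heart and skeletal muscle isoform of subunit 6a, had signals of 1834, 7667 and 17542 in 1999, P6 and P10 at 7d, against 105, 86.4 and 79.3 at 0h. The log2 change was 4.94 ± 0.82 (SE, adjusted p = 0.000178), and since the 0h values lie under the added 119.8 it understates the ratio. In P10 it was 7462 at 18h, while in 1999 it was 152 at 18h and 169 at 4d. The same order of cultures held for the summed muscle markers, and the difference in change between *Cox6a2* and *Cox6a1* was not tested.

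*Cox8b*, the muscle isoform of subunit 8, had signals of 472, 878 and 1711 at 7d, against 141, 187 and 135 at 0h, with a log2 change of 1.91 ± 0.45 (SE, adjusted p = 0.00502). This probe set too lay under the chip median at 0h and was tested only through later arrays. A further probe set of *Cox8b* lay above the chip median at 0h, at 1235, 1103 and 915. It gave 1.70 ± 0.36 (adjusted p = 0.00165). *Cox7a1*, the muscle isoform of subunit 7a, was not tested and read 129, 260 and 740 at 7d, against 41.3, 108 and 120 at 0h. The highest of these lay in P10 at 7d.

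**Figure D3:**
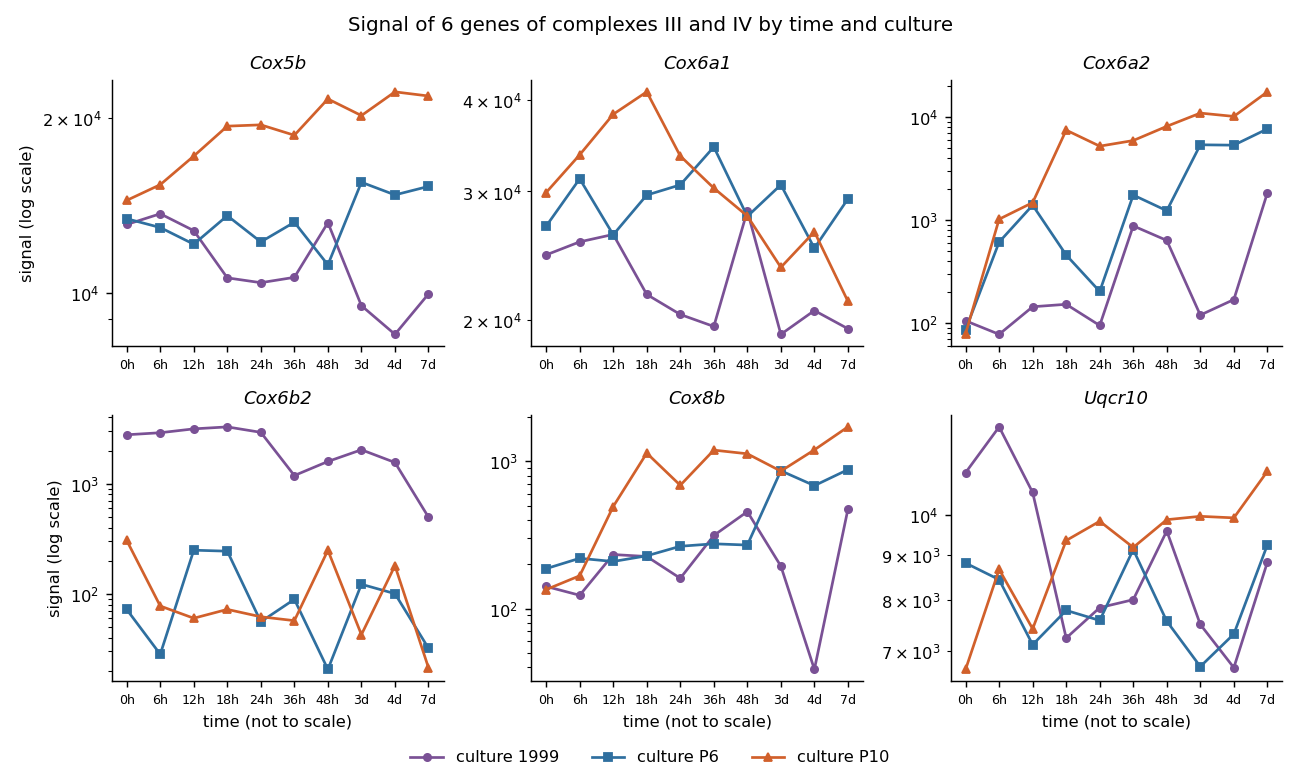
Signal (log scale, a different range in each panel) of 5 genes of complex IV and of *Uqcr10* of complex III, by time (evenly spaced, not to scale), with a line for each culture and a point for each array. *Cox6a2* is highest in P10 and lowest in 1999 from 6h on, *Cox6b2* is far higher in 1999 at all times, and *Cox6a1* stays between 19125 and 41065.

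In complex V, which had 14 tested genes, *Atp5g2* passed as lower at 7d. It encodes a precursor of subunit c of the rotor ring, and *Atp5g1* encodes the same mature protein. *Atp5g2* had signals of 2301, 2563 and 2467 in 1999, P6 and P10 at 7d, against 3527, 3226 and 3432 at 0h. The cultures lay close together and the groups did not overlap, with a log2 change of −0.46 ± 0.14 (SE, adjusted p = 0.0268). The call was lost without any 1 of the cultures, without the culture block and with scan session as the block. The other tested probe set of *Atp5g2* gave −0.23 without passing (limma adjusted p = 0.754). *Atp5g1* had 441, 357 and 451 at 7d, against 589, 455 and 666 at 0h, also without overlap, with a change of −0.36 ± 0.18 that did not pass (adjusted p = 0.218).

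*Atp5md* and *Atp5k*, small subunits of the membrane part that take part in pairing of the enzyme, changed by 0.51 ± 0.33 and 0.38 ± 0.31 and did not pass. *Atp5md* had 22688, 31904 and 27643 at 7d, against 18006, 21343 and 18091 at 0h. *Atp5k* had 653, 1408 and 1785 at 7d, against 799, 970 and 895 at 0h, lower in 1999 and higher in the others.

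Averaging 3d, 4d and 7d against 0h, 6h and 12h uses more arrays. The labels give the same RNA concentration for 6h and 12h within each culture and do not say whether they share an extract. With both times averaged into 1 sample 14 genes passed, 13 of them higher. With all arrays 16 genes passed, where 17.8% of all probe sets did, and 15 were higher and 1 lower, beside 8.85% and 8.98%. Complex I held 11, among them *Ndufa5*, *Ndufb10* and *Ndufs1*, which did not pass at 7d, with log2 changes of 0.42, 0.39 and 0.27. Complex III held *Uqcrc2* (0.69, adjusted p = 0.00108) and *Uqcr11* (0.50, adjusted p = 0.0121). Of the assembly factors *Ndufaf3* (0.72) and *Ndufaf1* (0.24) were higher and *Ndufaf5* was lower (−0.47, adjusted p = 0.0194). The count was 24 without 1999, 7 without P6 and 0 without P10. Without only the 3d and 4d arrays of 1999 it was 24, 23 of them higher, and at 7d the count was then 13 again. The share of all probe sets that passed is given here only for the fit on all arrays.

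More of these genes passed in the test of culture than in that of time. In the test of culture over all 30 arrays 45 of 74 genes passed, where 24% of all probe sets did. Without P10 6 passed, and the share of all probe sets in that fit is not given here. By complex the test over all 30 arrays found 19 of 31 genes of complex I, 3 of 4 of complex II and 6 of 7 of complex III. It found 7 of 12 of complex IV, 9 of 14 of complex V and 1 of 6 assembly factors. Averaged over all times P10 was the highest culture in 61 of 74 genes (82.4%), beside 31.5% of all probe sets. At 0h it was the highest in 18 of 74 (24.3%, beside 31.2%), and at 7d in 58 of 74 (78.4%, beside 36.4%). The median difference over all times was 0.28 between P10 and P6 and 0.33 between P10 and 1999 on the log2 scale. *Uqcrb*, *Sdhb*, *Ndufc1*, *Ndufa3* and *Atp5mpl* had the smallest p in this test apart from *Cox6b2*, which is counted among the 45 but had to differ, since its 9 arrays above the chip median all belong to 1999. The 10 times of a culture serve as its replicates here. The cultures were scanned in separate sessions except for P6 and P10 at 7d and, on MG_U74Cv2, some arrays of 1999, so culture and session cannot be told apart in this test outside those arrays.

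In *Uqcrb* the lowest, median and highest signals over the 10 times were 11016, 14878 and 20135 in P10, 7897, 9528 and 14261 in P6, and 5142, 6760 and 9140 in 1999. *Sdhb* gave 8442, 11555 and 14348 in P10, 5766, 6974 and 8847 in P6, and 4076, 5683 and 7811 in 1999. Both were higher in P10 than in each other culture at 10 of 10 times.

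**Figure D4:**
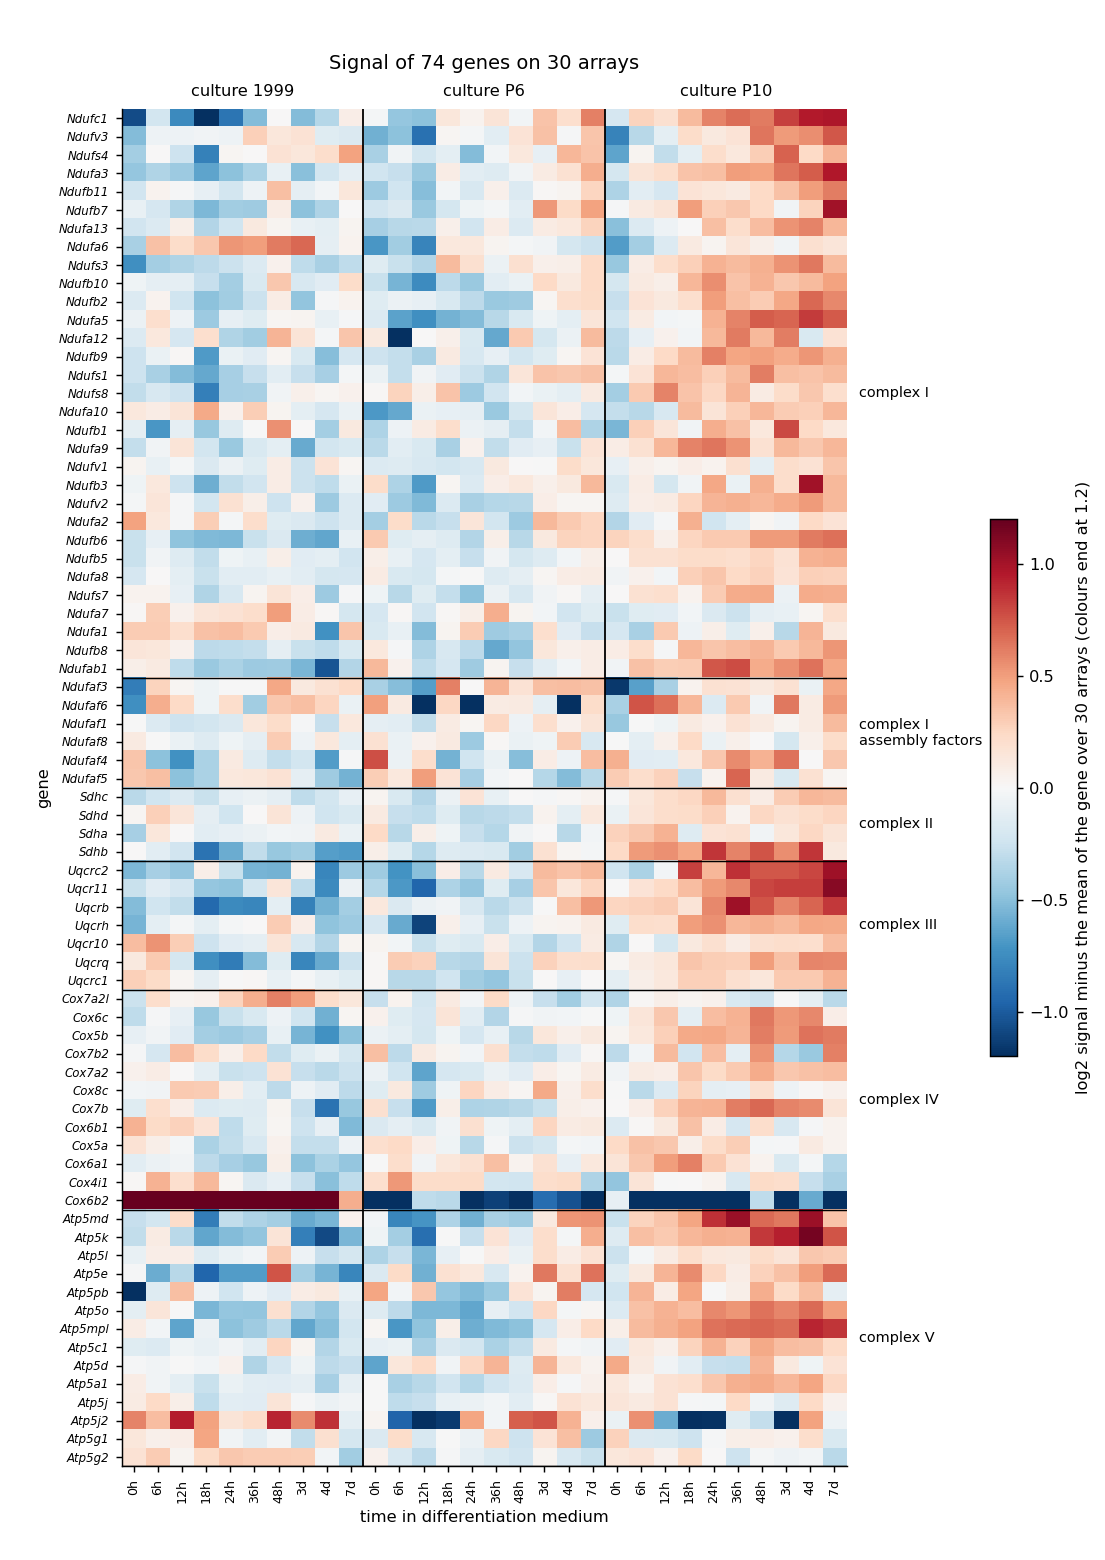
Log2 signal of the 74 tested genes, each centred on its own mean, in the 30 arrays, ordered by culture and then by time within culture, with genes grouped by complex. The P10 arrays after 0h are mostly above the gene mean, and the P10 array of 0h is not.

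The 3 cultures also took different courses. In P10 the median change from its own 0h array was 0.22 at 6h, 0.41 at 24h, 0.50 at 48h and 0.51 at 7d. The scan session of P10 changes on MG_U74Av2 between 6h and 12h and between 4d and 7d. In P10 13 of 74 genes are known to share the session of 0h at 12h, and 5 at 24h and 48h. For the others time and session cannot be told apart. In P6 the median change was −0.16 at 6h, −0.23 at 12h, −0.07 at 48h, 0.17 at 3d and 0.16 at 7d. The change of sign falls where the scan session of P6 changes on all 3 chips, between 48h and 3d, so time and session cannot be told apart there. In 1999 it was 0.12 at 6h, −0.19 at 18h, 0.17 at 48h, −0.25 at 4d and −0.03 at 7d. The scan session of 1999 changes on all 3 chips between 3d and 4d. Its arrays of 4d and 7d were also read on another scanner type, so there time and session cannot be told apart. At 7d 63, 52 and 34 of 74 genes were above their own 0h value in P10, P6 and 1999. Over all tested probe sets the medians of the 3 cultures lay between −0.08 and 0.03 at every time. The summed muscle markers at 7d were highest in P10 and lowest in 1999. Their median log2 change from 0h to 7d had another order, 7.02 in P6, 5.95 in P10 and 4.51 in 1999. Their part in the difference was not tested. The summed fibroblast markers were highest in 1999 at every time, which was not tested either.

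**Figure D5:**
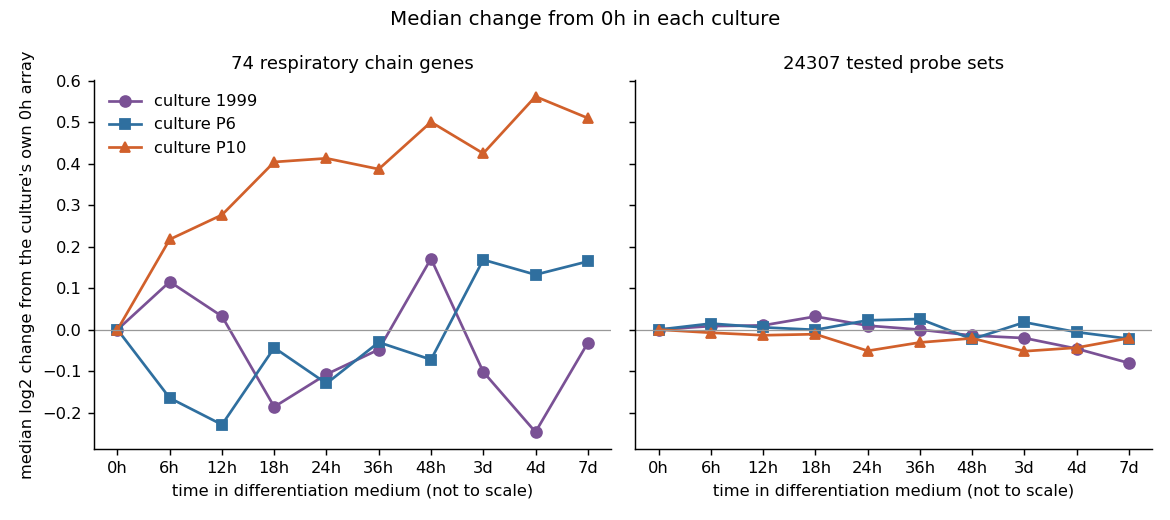
Median log2 change from the culture's own 0h array, by time and culture, for the 74 respiratory chain genes (left) and for all 24307 tested probe sets (right), with times evenly spaced. In the left panel P10 is above 0 from 6h on, P6 from 3d on, and 1999 falls on both sides of 0. The scan session of P6 changes before 3d, that of 1999 before 4d, and that of P10 on MG_U74Av2 before 12h and before 7d.

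The difference between the late phase (3d, 4d, 7d) and the early phase (0h, 6h, 12h) was also compared between cultures, with the 3 times of a phase as replicates. Its median over the 74 genes was −0.18 in 1999, 0.28 in P6 and 0.32 in P10, and 22, 60 and 61 genes were above 0. In P6 the phases were scanned in separate sessions. In 1999 the 4d and 7d arrays, and in P10 the 7d arrays, were scanned apart from the early phase. On MG_U74Av2 the P10 arrays of 3d and 4d shared a session with 12h but not with 0h and 6h. The change between phases thus cannot be fully told apart from session in any culture. In complex I the median was −0.03, 0.41 and 0.42, in complex III −0.25, 0.33 and 0.43, and in complex IV −0.35, 0.04 and −0.05. The interaction passed in 2 of 74 genes, where 2.36% of all probe sets passed. It passed in 0 with 6h and 12h of each culture averaged, and in 0 with an added value of 1. *Cox5b*, a zinc-binding subunit of complex IV, changed by −0.50 in 1999, 0.24 in P6 and 0.45 in P10 (adjusted p = 0.0339). *Uqcr10*, a small subunit of complex III, changed by −0.57, −0.07 and 0.45 (adjusted p = 0.0362). *Uqcr11* (adjusted p = 0.0539), *Atp5k* (adjusted p = 0.0566) and *Uqcrq*, another small subunit of complex III (adjusted p = 0.0586), came next and did not pass.

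The instrument records divide the arrays into scan sessions, 6, 5 and 5 on MG_U74Av2, MG_U74Bv2 and MG_U74Cv2, and 6 arrays of P10 on MG_U74Cv2 carry no date. In 0 sessions do 0h and 7d of the same culture meet, so 7d and session cannot be told apart within a culture. P10 and P6 at 7d were scanned together, and there the median difference between P10 and P6 was 0.26 over the 74 genes, with 61 above 0, beside −0.0045 over all probe sets. In complex I this difference was 0.35, with 29 of 31 above 0. Within sessions the change from 0h was 0.22 in P10 at 6h (61 of 74 above 0), and in P6 it was below 0 at all 6 times scanned with 0h, from −0.23 at 12h to −0.03 at 36h. In 1999 it was 0.12 at 6h (49 of 74), 0.03 at 12h (42), −0.19 at 18h (24), −0.11 at 24h (30), −0.05 at 36h (32), 0.17 at 48h (50) and −0.10 at 3d (29). The 1999 array of 48h also had the highest ratios of 3′ to 5′ control probe sets of any array, 0.985 for *Gapdh* and 1.37 for beta-actin, and their part was not tested. With session as a block in place of culture 5 genes passed at 7d, and the share of all probe sets in that fit is not given here.

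The other tested probe sets of these genes were 36, in 26 genes, and at 7d 21 had the sign of the probe set used and 15 the other sign. In 0 genes did 2 probe sets both pass, in 8 combinations only the probe set used passed, and in 2 only the other. Among the risen genes, another probe set of *Ndufc1* gave −0.01 and another of *Ndufa3* gave 0.26, both without passing. Those of *Ndufs3* and *Ndufa6*, which did not pass either, are given above. Another probe set of *Ndufb2*, a membrane-arm subunit, passed at 0.62 (adjusted p = 0.0388) where the one used gave 0.48 (adjusted p = 0.0908). The probe sets of *Ndufa3*, *Uqcrc2*, *Atp5g2* and *Cox6b2* that were used carry a mark for probes shared with other sequences, so related transcripts may add to their signal.

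Genes around the respiratory chain were read from lists. At 7d, 7.64% of all probe sets were called higher and 7.31% lower. Of 28 tested assembly factors of the complexes, 5 were higher and 0 lower, among them *Pet100*, a complex IV assembly factor (0.85 ± 0.23, adjusted p = 0.0128), and *Tmem126b*, a complex I assembly factor (0.81 ± 0.22, adjusted p = 0.0116). Of 13 genes of the tricarboxylic acid cycle 1 was higher, *Idh3g* (0.50), and 1 lower, *Suclg2* (−0.90). Of 11 genes of fatty acid oxidation 2 were higher, *Acadm* (1.19 ± 0.33, adjusted p = 0.0149) and *Hadhb* (1.00 ± 0.15, adjusted p = 5.56e-05). Of 13 carriers and electron shuttles 0 passed at 7d in limma, and 2 had an unadjusted p under 0.05.

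Among the genes that make mitochondrial proteins, those that passed at 7d fell. Of 68 genes of the mitochondrial ribosome 10 were lower and 0 higher at 7d, with a list median of −0.27, and between the late and early phases 13 were lower and 2 higher. An example at 7d is *Mrpl12* (−1.06 ± 0.23, adjusted p = 0.00228). Of 23 genes of protein import and folding 7 were lower and 0 higher, with a median of −0.47, for example *Hspd1*, the mitochondrial chaperonin (−1.51 ± 0.28, adjusted p = 0.000588), and *Timm8a1* (−1.84 ± 0.36, adjusted p = 0.00101). Of 17 regulators of mitochondrial biogenesis 2 were lower, *Myc* (−2.36 ± 0.64, adjusted p = 0.0134) and *Sirt1* (−0.87 ± 0.29, adjusted p = 0.044). Markers of dividing cells fell at the same time, and their part in these decreases was not tested.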

How the data were processed

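RNA was labelled as biotinylated cRNA per the labels' protocols, and each array was summarised with MAS5 per the submitters' processing notes, with the version and scaling target not given in the sources used here. The authors deposited intensity, a linear MAS5 signal that runs from 0.200814 to 1010450, on 3 chip designs of 12488, 12477 and 11934 probe sets. Array means lay between 1946 and 3009. The 3 arrays per time limit the precision, and detection calls were not used. The 90 arrays fall into 10 times and 3 cultures.

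Signals were taken to log2 after the 25th percentile of the chip table was added (119.8, 270.1 and 213.0 on MG_U74Av2, MG_U74Bv2 and MG_U74Cv2). The 66 control probe sets per chip were left out. A probe set was tested if at least 3 of 30 arrays exceeded the chip median. Each gene was represented by 1 probe set, a tested 1 where possible. Those without a suffix mark came first, then MG_U74Av2 before MG_U74Bv2 and that before MG_U74Cv2. Only then did the highest mean signal decide, so another probe set of a gene can have a higher signal. Gene symbols are those of the platform annotation, which can be old.

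Models of time with culture as a block were fitted per chip with limma 3.58.1 in R 4.3.3, with Benjamini-Hochberg adjustment over all tested probe sets of the 3 chips. Tests were two-sided. Culture names recur at every time in the titles and pair the samples. Deviations from the time mean had median correlations of 0.44, 0.232 and 0.088 within cultures, against −0.199, −0.085 and −0.036 between them, and 125, 100 and 61 of 135 pairs exceeded 0.1. No arrays were identical.

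On simulated data for 7d against 0h, over 24307 probe sets, 2% of 100 changes of log2 size 0.5, 29% of size 1 and 82% of size 2 were recovered, with 9 false calls. The simulation changed far fewer probe sets than the 14.9% called at 7d in the data, which makes its adjusted threshold harder to pass. These shares therefore do not give the recovery for the genes described here, and changes of the size seen here may still have been missed. The members, related lists, markers and motifs were chosen with earlier results of these data known.

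Named genes were, at 7d, the 3 largest changes and the smallest joint p in each complex, the 5 smallest interaction p, isoform pairs, and up to 2 risen and 2 fallen genes of each related list. Genes that passed at any time, the 6 with the smallest p in the culture test and genes whose probe sets disagree were added after their values were seen. Alternatives covered the block, the added value, the filter, the normalisation, scan session, the probe set and each culture. The fits without the 4d and 7d arrays of 1999, read on another scanner type, and without its 3d and 4d arrays, low in muscle markers, and those with 6h and 12h averaged, were chosen after seeing the data. Ratios of 3′ to 5′ control probe sets lay between 0.72 and 0.99 for *Gapdh* and 0.86 and 1.37 for beta-actin.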

Additional observations from a re-analysis of the deposited data

Results flagged for a closer look

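*Cox5b* and *Uqcr10* stood out because their change between phases differed between cultures in the interaction test, which passed in 2 of 74 genes beside 2.36% of all probe sets. For *Cox5b* (adjusted p = 0.0339) the late phase minus the early phase was −0.50 in 1999, 0.24 in P6 and 0.45 in P10 on the log2 scale. Its signal at 7d was 9957, 15249 and 21819 in 1999, P6 and P10, against 13112, 13416 and 14426 at 0h. For *Uqcr10* (adjusted p = 0.0362) the same differences were −0.57, −0.07 and 0.45, with signals of 8827, 9237 and 11195 at 7d, against 11157, 8810 and 6674 at 0h. The 3 times of a phase served as replicates within a culture, so the spread between cultures handled alike is not measured. Phase also overlaps with scan session, in full in P6 and in part in 1999 and P10. With only 2 cultures 0 genes passed. With an added value of 1 the adjusted p was 0.0507 for *Cox5b* and 0.0521 for *Uqcr10*, and with 6h and 12h of each culture averaged 0.108 and 0.116, so both calls were lost. The summed muscle markers in the late phase were lowest in 1999 and highest in P10, and their part was not tested.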

How the results depend on the processing

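Settings were changed one at a time. The share of all probe sets that passed under each setting is not given here. A changed count therefore need not be particular to these genes. Without the culture block, that is without the pairing, the counts of genes that passed were 1 at 18h, 1 at 24h, 1 at 36h, 2 at 48h, 2 at 3d, 1 at 4d, 4 at 7d, 0 in the joint test and 6 between late and early phase. With scan session as the block they were 1 at 12h, 3 at 18h, 3 at 3d, 1 at 4d, 5 at 7d, 0 in the joint test and 3 between phases. Fitted on only the arrays of the times compared, which leaves fewer arrays to estimate the spread, they were 0 from 18h to 4d and 1 at 7d. The interaction count was 0 with 6h and 12h averaged, 0 with an added value of 1, 10 with the chip median added, 1 with no filter and 6 with the stricter filter. With every probe set counted 1 passed at 12h.

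Leaving out 1 culture at a time gave between 0 and 3 at 18h, 0 and 1 at 24h, 0 and 3 at 36h, 0 and 3 at 48h, 0 and 4 at 3d, 0 and 5 at 4d, 0 and 9 at 7d, 0 and 2 in the joint test, 0 and 24 between phases, 6 and 42 in the culture test, and 0 in the interaction. The lowest counts over time were those without P10.

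For 29 named genes at 7d, 404 values were recomputed. Of these 325 kept their direction and side of the threshold, 65 lost the call, 3 gained it and 11 changed sign, 0 of the latter kind among genes that had passed. *Sdhd* became −0.0022 with quantile normalisation and −0.015 with scan session as block, which also gave −0.0051 for *Cox7a2* and −0.18 for *Uqcrq*. With 1 culture left out *Cox5b* lay between −0.10 and 0.39, *Cox7a2* between −0.072 and 0.29, *Sdhd* between −0.10 and 0.18, *Uqcr10* between −0.13 and 0.40, *Uqcrq* between −0.088 and 0.38 and *Cox6b1* between −0.37 and 0.24. *Cox6b1* was 0.067 without the 4d and 7d arrays of 1999. *Uqcr11* passed without 1999 (0.85), without its 4d and 7d arrays (0.79) and without its 3d and 4d arrays (0.63). Causes of these shifts were not tested. Signals near the added value, as of *Cox6b2*, limit what a fold change shows.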

Other observations

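The change from the early to the late phase is given here by complex for the complexes not described above. In complex V the median change between phases was −0.20 in 1999, with 1 of 14 genes above 0, 0.36 in P6, with 13 of 14, and 0.28 in P10, with 10 of 14. In complex II it was −0.14, 0.18 and 0.11 over 4 genes. The highest culture at 7d was P10 in 27 of 31 genes of complex I, 4 of 4 of complex II, 7 of 7 of complex III, 6 of 12 of complex IV and 9 of 14 of complex V, beside 36.4% of all tested probe sets. At 0h it was P10 in 4 of 31, 2 of 4, 4 of 7, 4 of 12 and 4 of 14.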
